A study of Arabidopsis thaliana with 12 samples.

Results

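The 41 genes described here belong to the seed maturation program of *Arabidopsis thaliana*: 16 late embryogenesis abundant (LEA) and dehydrin genes, 4 genes linked to desiccation, 10 seed storage protein genes, 5 oil body genes and 6 regulators (*ABI3*, *ABI4*, *ABI5*, *FUS3*, *LEC1* and *DOG1*). They are 41 of the 37336 genes in the count files, were matched by gene identifier, and were chosen by a rule that looked at the data, because the largest rises at 29 °C were of this kind. The values that chose them are those of WT at 29 °C against WT at 23 °C, so that comparison and every other comparison that uses these WT libraries are given below as a description. RNA-Seq libraries were made from whole 4-day-old seedlings in 4 groups of 3 independent biological replicates, labelled A to C: wild type (WT, Col-0) at 23 °C, WT at 29 °C, and the lines OE *APOLO-1* and *vim1-3*, both kept at 23 °C. The study's methods state that the warm seedlings spent 6 h at 29 °C, whereas the labels say only that they were grown at that temperature. OE *APOLO-1* is 1 transgenic line in which the 35S promoter drives the long noncoding RNA *APOLO*, and *vim1-3* is 1 T-DNA insertion line of *VIM1*, a methylcytosine-binding protein. Genotypes other than WT at 29 °C were not analysed here.

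Seed maturation is the last phase of embryo development, in which the embryo stores proteins and oil and then becomes able to survive drying. LEA proteins and dehydrins are hydrophilic proteins that accumulate at this stage and, in many cases, in vegetative tissue under water deficit. The B3 factors ABI3 and FUS3 and the CCAAT-binding factor subunit LEC1 drive the program together with the abscisic acid (ABA)-linked bZIP factor ABI5. B3 factors bind RY elements and bZIP factors bind ABA-responsive elements (ABREs) in the promoters of these genes, and after germination the program is normally shut down.

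The upstream sequences are shown for 4 of the genes because they carry these elements in different mixtures: the dehydrogenase-like gene AT1G54870 and the LEA genes AT3G53040 and *LEA7* (AT1G52690), which were high in WT at 29 °C, and the cruciferin gene *CRA1* (AT5G44120), which behaved differently. Each is the 250 bases before the RefSeq gene start in TAIR10.1, written 5′ to 3′ in the direction of the gene, with ACGTG or its reverse complement CACGT (the ABRE core) and CATGCA or its reverse complement TGCATG (the RY element) in capitals. They lie at chr1:20458702-20458951 (plus strand), chr3:19666498-19666747 (minus strand), chr1:19619474-19619723 (plus strand) and chr5:17758337-17758586 (minus strand).
AT1G54870: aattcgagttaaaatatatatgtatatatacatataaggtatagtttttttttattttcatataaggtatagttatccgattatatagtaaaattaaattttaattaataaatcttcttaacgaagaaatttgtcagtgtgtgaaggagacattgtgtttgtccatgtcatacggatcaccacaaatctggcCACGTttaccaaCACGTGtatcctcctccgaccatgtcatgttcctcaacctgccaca
AT3G53040: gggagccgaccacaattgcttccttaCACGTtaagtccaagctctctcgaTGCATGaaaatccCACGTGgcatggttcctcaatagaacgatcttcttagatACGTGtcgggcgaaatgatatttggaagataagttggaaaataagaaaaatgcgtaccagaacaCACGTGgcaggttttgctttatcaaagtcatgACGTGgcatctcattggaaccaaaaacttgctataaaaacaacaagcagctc
LEA7: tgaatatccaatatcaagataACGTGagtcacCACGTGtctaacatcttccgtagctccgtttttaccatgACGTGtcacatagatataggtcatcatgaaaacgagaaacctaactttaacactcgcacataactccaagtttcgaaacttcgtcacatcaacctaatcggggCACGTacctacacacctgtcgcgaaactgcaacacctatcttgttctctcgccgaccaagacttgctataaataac
CRA1: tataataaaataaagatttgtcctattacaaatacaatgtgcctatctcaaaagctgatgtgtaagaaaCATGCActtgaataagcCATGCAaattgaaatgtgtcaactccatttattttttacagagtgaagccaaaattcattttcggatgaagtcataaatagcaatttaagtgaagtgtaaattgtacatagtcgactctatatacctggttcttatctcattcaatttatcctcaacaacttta
AT1G54870 had 3 ABRE cores, AT3G53040 had 7 with 1 RY element, *LEA7* had 5, and *CRA1* had 2 RY elements and 0 ABRE cores. A CACGTG (G-box) reads as an ABRE core on both strands and was counted as 2.

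Over the 41 genes the ABRE core was found in the 250 upstream bases of 29 (70.7%), against 6288 of 27443 nuclear protein-coding genes (22.9%). At least 2 cores were present in 27 of the 41 (65.9%, against 8.84%). The G-box CACGTG, which contains the core, was found in 21 (51.2%, against 6.49%), and the RY element CATGCA in 20 (48.8%, against 8.43%). Both the ABRE core and the RY element occurred in 14 windows (34.1%, against 2.22%). The mixture differed among the classes. ABRE cores were present in 14 of 16 LEA genes, 4 of 4 desiccation genes, 7 of 10 storage genes, 3 of 5 oil body genes and 1 of 6 regulators, the exception being *ABI5* with 7. RY elements were present in 6 of 16 LEA genes, 0 of 4 desiccation genes, 8 of 10 storage genes, 5 of 5 oil body genes and 1 of 6 regulators (*FUS3*). These matches are letters in a fixed window and were not tested for binding or against the changes at 29 °C. The 4 windows above do not stand for the set. *OLEO2* (0 ABRE cores and 2 RY elements) and *M17* (0 of either) were also called higher in WT at 29 °C than in WT at 23 °C. *CRU3*, with 3 ABRE cores, was not called.

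**Figure D1:**
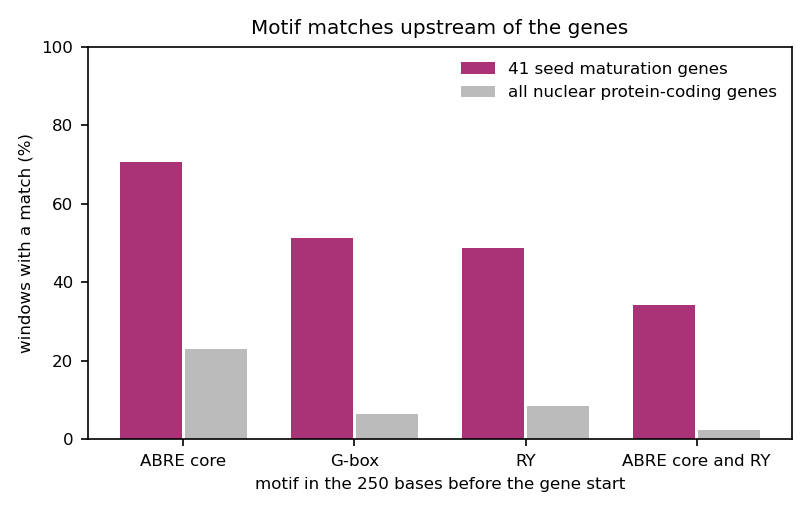
Share of genes (vertical axis, percent) with a match to each motif (horizontal axis) on either strand in the 250 bases before the gene start, for the 41 seed maturation genes and for all 27443 nuclear protein-coding genes. The shares of the seed maturation genes are 70.7% for the ABRE core, 51.2% for the G-box, 48.8% for RY and 34.1% for ABRE core and RY together, against 22.9%, 6.49%, 8.43% and 2.22% of all genes.

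Values below are raw counts scaled to a common library size (TMM-normalized counts, where 1 unit is 1 read in a library of 18009916 reads on genes). Calls rest on the quasi-likelihood test of edgeR with a Benjamini-Hochberg adjusted p under 0.01, fitted on 20664 genes in all 12 libraries. Counts on genes ranged from 8824476 (WT 23 °C replicate C) to 22925019 (*vim1-3* replicate A) per library, and the floor of 3 counts corresponded to 2.28 to 6.49 normalized counts. *VIM1* (AT1G57820) had 1 to 5 counts in the *vim1-3* libraries and 56 to 241 in the other 9. *APOLO* (AT2G34655) had 4984 to 11720 counts in OE *APOLO-1*, 1 to 18 in the *vim1-3*, WT 29 °C and other WT 23 °C libraries, and 1197 in the library labelled WT 23 °C replicate A, unlike the other 5 WT libraries. Whether that library carries a wrong label or mixed RNA was not tested, and values that use it hold only as far as its label does. WT 23 °C replicate B stood apart in another way: 6 root-hair genes (*EXPA7*, *SHV2*, *PRP3*, *RHS19*, *EXPA18* and *RHS13*) were at 0 to 3.16 normalized counts each there, and summed to 10.5, against 2575 in the library labelled replicate A, 1283 in replicate C and 3805 to 8565 in the 9 libraries of the other groups. The sum of 6 photosynthesis genes was similar in all 12 libraries, from 829112 to 1208110.0. The WT 23 °C group is thus uneven, and the counts of members called against it are also given without each of its libraries. The other values that use it, among them those of further gene lists, are given with all 3 libraries.

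Summed over normalized counts, the 41 genes reached 3157, 2477 and 2689 in WT at 23 °C (replicates A, B and C), 13715, 20170.2 and 14871 in WT at 29 °C, 2383, 1708 and 2290.2 in OE *APOLO-1* and 4385, 4034 and 4670.2 in *vim1-3*. The 3 warm libraries were the highest and the 3 *vim1-3* libraries came next, while OE *APOLO-1* and WT at 23 °C were lowest. In whole seedlings, more cells of a type that expresses a gene and more RNA per cell cannot be told apart. The 41 genes together took 0.0101% to 0.0174% of all counts in OE *APOLO-1* and WT at 23 °C, 0.0224% to 0.0270% in *vim1-3* and 0.0782% to 0.111% in WT at 29 °C. Most of the sum came from the LEA class.

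**Figure D2:**
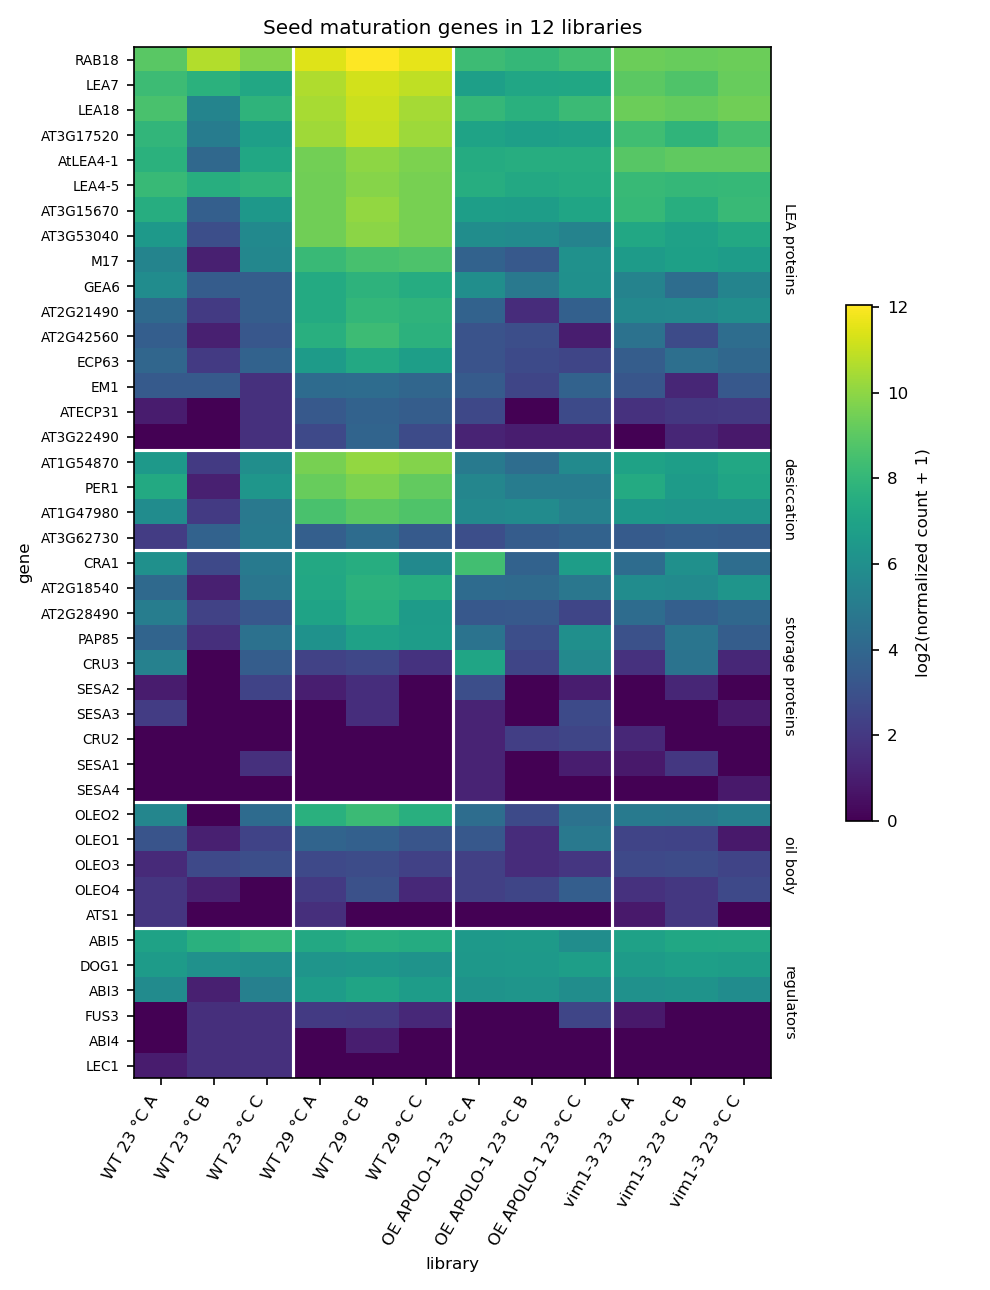
Level of each of the 41 genes (rows, grouped by class and ordered by mean level within a class) in each of the 12 libraries (columns), as log2(normalized count + 1). All 16 LEA rows are highest in the 3 WT 29 °C libraries, several rows such as *PER1*, *LEA18* and *ABI3* are lowest in WT 23 °C replicate B, and the albumins (*SESA1* to *SESA4*), *ABI4*, *FUS3* and *LEC1* do not exceed 6.35 normalized counts.

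Of the 41 genes, 28 passed the filter on low counts: 14 of 16 LEA genes, 4 of 4 desiccation genes, 5 of 10 storage genes, 2 of 5 oil body genes and 3 of 6 regulators. The 13 that did not pass were AT3G22490, *ATECP31*, *CRU2*, *SESA1* to *SESA4*, *OLEO3*, *OLEO4*, *ATS1*, *ABI4*, *FUS3* and *LEC1*. A member may have passed only through the warm libraries in which it was high, so counts over the 28 describe these genes and are no support for a rise. In WT at 29 °C against WT at 23 °C, the comparison the genes were selected on, 18 of 28 were called higher and 0 lower, beside 7.88% of all 20664 tested genes higher and 12.8% lower. The median log2 fold change of the 28 was 3.03, against -0.01 for all tested genes. The 18 were 13 LEA genes, 2 desiccation genes, 2 storage genes and *OLEO2*. Without the library labelled WT 23 °C replicate A 20 members were called higher (15.2% of all genes tested in that fit), without replicate B 20 (7.0%), without replicate C 11 (5.41%) and without WT 29 °C replicate B 11 (4.71%). The fit of these 6 libraries alone called 5 higher, beside 1.59% of all (*LEA7*, *LEA4-5*, *ECP63*, AT2G42560 and AT2G21490). All 3 warm libraries lay above all 3 WT 23 °C libraries in 23 of the 28 genes, and in 21.9% of all tested genes. They did so in 6 of the 6 root-hair genes too, none of them called, with a median log2 fold change of 2.43, and the part of this shift in the result was not tested.

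The LEA class carried the highest levels. *RAB18* (AT5G66400), an ABA-inducible dehydrin and the most abundant of the 41 genes, reached 496, 1632 and 909 normalized counts in WT at 23 °C, 2865, 4258 and 3147 in WT at 29 °C, 306, 260.1 and 342 in OE *APOLO-1* and 656, 608 and 653 in *vim1-3* (replicates A, B and C in each list). It was highest in the 3 warm libraries and lowest in the 3 OE *APOLO-1* libraries, and none of the 4 groups overlapped except *vim1-3* with WT at 23 °C, where the library labelled replicate A fell below the *vim1-3* libraries and replicate B was the highest. Its log2 fold change was 1.76 ± 0.35 (SE) in WT at 29 °C and -1.74 ± 0.36 in OE *APOLO-1*, each against WT at 23 °C. *RAB18* overlaps an exon of AT5G66410 on the opposite strand, and whether the counting used the strand is not stated.

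*LEA7*, a member of a LEA group whose proteins fold on drying, reached 305, 208 and 149 normalized counts in WT at 23 °C, 1556, 2436 and 1898 in WT at 29 °C, 111, 141 and 146 in OE *APOLO-1* and 524, 425 and 602 in *vim1-3*. The 4 groups did not overlap at all at this gene, in the order WT at 29 °C, *vim1-3*, WT at 23 °C and OE *APOLO-1*. Its log2 fold change against WT at 23 °C was 3.12 ± 0.25 at 29 °C, 1.20 ± 0.24 in *vim1-3* (called) and -0.76 ± 0.26 in OE *APOLO-1* (not called). *LEA18* (AT2G35300), of the same small family as *AtLEA4-1* and *LEA4-5*, reached 387, 42.2 and 231 normalized counts in WT at 23 °C, 1411, 2153 and 1400.5 in WT at 29 °C, 259, 201 and 293 in OE *APOLO-1* and 657, 587 and 689.9 in *vim1-3*. The warm and the *vim1-3* libraries were each above the other 2 groups, whose ranges overlapped and in which WT 23 °C replicate B was the lowest of all 12.

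The 3 largest log2 fold changes at 29 °C were those of the LEA gene AT2G42560 (5.06 ± 0.57), the dehydrin AT2G21490 (4.36 ± 0.47) and AT1G54870 (4.15 ± 0.64). AT2G42560 reached 11.2, 1.05 and 8.65 normalized counts in WT at 23 °C, 193, 304 and 212 in WT at 29 °C, 7.62, 6.53 and 0.931 in OE *APOLO-1* and 22.2, 5.72 and 19 in *vim1-3*. It lay between 0.93 and 22.3 in the 9 libraries outside the warm group, below all 3 warm libraries. AT2G21490 reached 16.4, 3.16 and 10.8 normalized counts in WT at 23 °C, 163, 251 and 229.6 in WT at 29 °C, 12.7, 1.86 and 12.1 in OE *APOLO-1* and 49.1, 50.1 and 60.8 in *vim1-3*, and here *vim1-3* stood between the warm libraries and the other groups without overlap, called higher than WT at 23 °C (log2 fold change 2.36 ± 0.49). Among the remaining LEA genes the log2 fold changes at 29 °C ran from 1.08 for the Em protein gene *EM1*, the only tested LEA gene not called, through 1.80 for *LEA4-5*, 2.67 for the second Em gene *GEA6*, 2.81 for *AtLEA4-1*, 3.16 for AT3G15670, 3.52 for AT3G17520, 3.55 for *ECP63* and 3.63 for *M17* to 4.04 for AT3G53040. *M17* shares 17% of its 75-base exon stretches with other places in the genome, so its reads are less certain. The group means of AT3G53040, named here for its upstream sequence after its values were seen, were 48.8 ± 41 (SD, n = 3), 818 ± 163, 141 ± 18.1 and 52.2 ± 9.92 normalized counts in WT at 23 °C, WT at 29 °C, *vim1-3* and OE *APOLO-1*. The 2 untested LEA genes, AT3G22490 and *ATECP31*, were also highest in the 3 warm libraries, at 5.25 to 13.9 and 9.45 to 13.0 normalized counts.

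Scaled by exon length and library size (RPKM, group means), the level of the LEA genes at 29 °C ran from 0.462 for AT3G22490 to 175 for *RAB18*. *LEA18* was at 145 RPKM and *LEA7* at 121, whereas the Em genes *GEA6* and *EM1*, textbook markers of the late embryo, were at 14.3 and 1.01. At 23 °C in WT, *RAB18*, *LEA18*, *LEA7*, *GEA6* and *EM1* were at 51.6, 19.3, 13.5, 2.04 and 0.423.

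Of the 4 genes linked to desiccation, 3 followed the LEA pattern. AT1G54870, annotated as a protein of the NAD(P)-binding Rossmann fold, reached 90.7, 3.16 and 60.6 normalized counts in WT at 23 °C, 769.8, 1107 and 891 in WT at 29 °C, 29.2, 18.6 and 54 in OE *APOLO-1* and 122, 109 and 148 in *vim1-3*. *PER1* (AT1G48130), a seed peroxiredoxin, reached 159.7, 1.05 and 80 normalized counts in WT at 23 °C, 614, 830.2 and 574 in WT at 29 °C, 45.7, 32.6 and 32.6 in OE *APOLO-1* and 165, 97.3 and 132 in *vim1-3*. AT1G47980, annotated as desiccation-like, reached 57, 3.16 and 28.1 normalized counts in WT at 23 °C, 389, 517 and 421 in WT at 29 °C, 49.5, 55 and 38.2 in OE *APOLO-1* and 83.6, 75.8 and 76.8 in *vim1-3*. All 3 were highest in the warm libraries without overlap, and WT 23 °C replicate B, the library with almost no root-hair transcripts, was their lowest library at 1.05 to 3.16. The part of that library's tissue make-up in these differences was not tested. Without it, the log2 fold changes of AT1G54870 and AT1G47980 at 29 °C were called. *PER1* was not called at 29 °C over WT at 23 °C (3.03 ± 0.74) but was called there without WT 23 °C replicate B and without the library labelled replicate A. The other desiccation-like gene, AT3G62730, was low in every group, with means of 15.5 ± 13.6, 13.1 ± 4.28, 10.7 ± 0.739 and 9.88 ± 3.35 in the order given for AT3G53040, and was not called in any of the 6 comparisons.

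**Figure D3:**
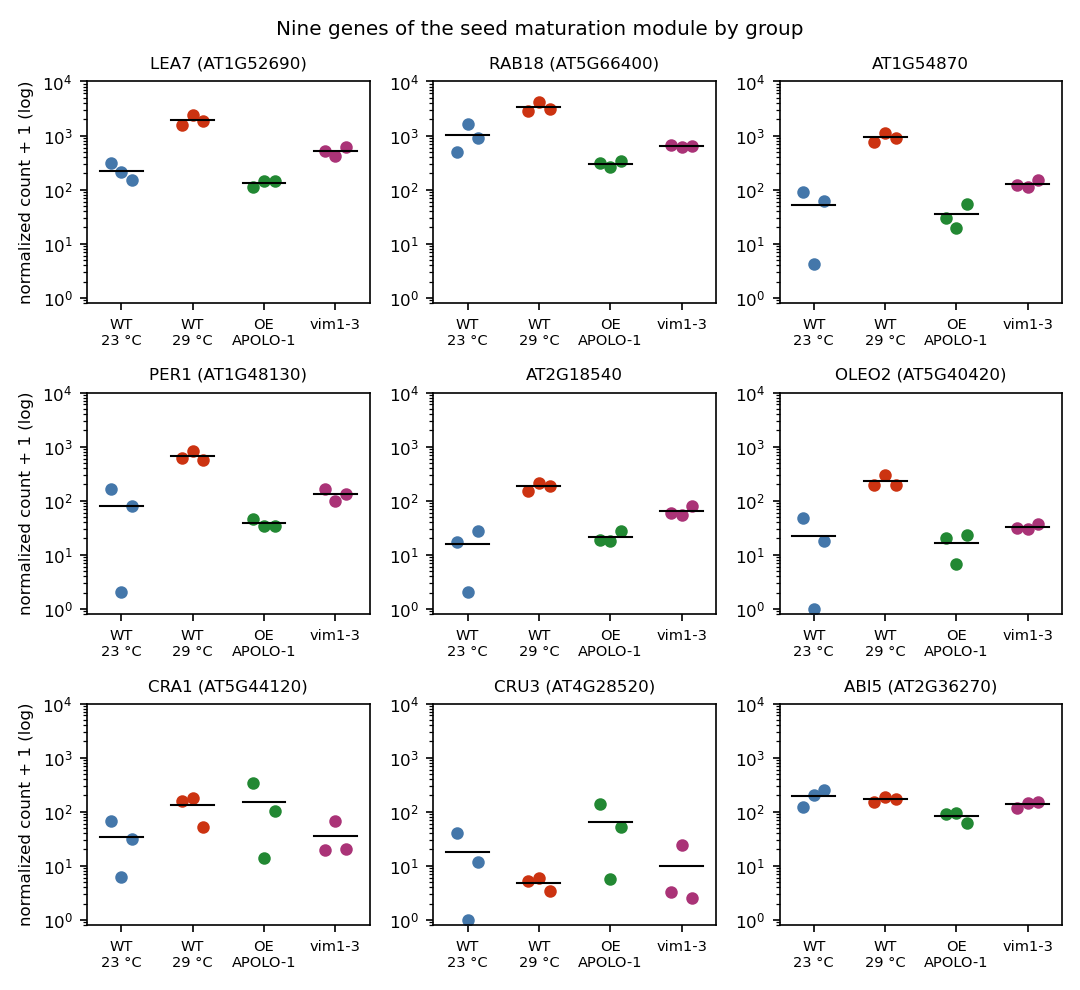
Normalized count + 1 (vertical axis, log scale) of 9 genes in the 4 groups, with 1 point per library in the order A, B, C and a line at the group mean. *LEA7*, *RAB18*, AT1G54870, *PER1*, AT2G18540 and *OLEO2* are highest in the 3 WT 29 °C libraries, *CRA1* and *CRU3* reach their highest points in OE *APOLO-1* replicate A, and *ABI5* is lowest in OE *APOLO-1*.

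The storage protein genes did not move as one class. *CRA1*, which encodes a 12S globulin (cruciferin), reached 64.8, 5.27 and 30.3 normalized counts in WT at 23 °C, 156, 179 and 51.5 in WT at 29 °C, 333, 13.1 and 103 in OE *APOLO-1* and 18.4, 65.8 and 19 in *vim1-3*. Its ranges overlapped in every comparison of groups, and its values within OE *APOLO-1* spread from 13.1 to 333. *CRU3* (AT4G28520), another cruciferin, singled out after its values were seen, reached 38.9, 0 and 10.8 normalized counts in WT at 23 °C, 4.2, 4.98 and 2.45 in WT at 29 °C, 137, 4.66 and 50.3 in OE *APOLO-1* and 2.3, 22.9 and 1.52 in *vim1-3*. In each group 1 library had the most of both cruciferins: the library labelled WT 23 °C replicate A, WT 29 °C replicate B, OE *APOLO-1* replicate A and *vim1-3* replicate B. Neither gene was called in any of the 6 comparisons. The third cruciferin, *CRU2*, was at 0 counts in all 6 WT libraries and at 1.27 to 4.65 normalized counts in OE *APOLO-1*, and the 2S albumin genes *SESA1* to *SESA4* did not exceed 6.35 in any library. For these 5 genes a level below 2.28 to 6.49 normalized counts could not be told from 0 at this depth.

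The other 3 tested storage genes were annotated as cupins, as was *CRA1*. In each of the 3 every warm library lay above every WT 23 °C library, unlike in *CRA1* and *CRU3*. AT2G18540 reached 16.4, 1.05 and 26 normalized counts in WT at 23 °C, 149, 214 and 184 in WT at 29 °C, 17.8, 16.8 and 26.1 in OE *APOLO-1* and 57.5, 52.9 and 77.6 in *vim1-3*, and AT2G28490 reached 33.7, 4.22 and 8.65 normalized counts in WT at 23 °C, 128, 193 and 98 in WT at 29 °C, 8.89, 9.32 and 4.65 in OE *APOLO-1* and 18.4, 11.4 and 15.2 in *vim1-3*. Both were called higher in WT at 29 °C than in WT at 23 °C, with log2 fold changes of 3.81 ± 0.51 and 3.02 ± 0.52. *PAP85* (AT3G22640), a vicilin-like cupin, had 3.06 ± 0.78 in that comparison and was not called, although its 3 warm libraries (69.3 to 117) lay above its 3 WT 23 °C libraries (2.11 to 21.6). Among the oil body genes, *OLEO2* (AT5G40420), which encodes an oleosin that coats seed oil bodies, reached 45.8, 0 and 17.3 normalized counts in WT at 23 °C, 197, 300.0 and 195 in WT at 29 °C, 19.1, 5.59 and 22.3 in OE *APOLO-1* and 29.9, 28.6 and 35.7 in *vim1-3*. It was called higher at 29 °C (3.36 ± 0.72), and its exons overlap those of AT5G40410 on the opposite strand. *OLEO1* (AT4G25140), in seeds a major oleosin, reached 7.77, 1.05 and 4.33 normalized counts in WT at 23 °C, 13.7, 12 and 8.17 in WT at 29 °C, 8.89, 1.86 and 27.9 in OE *APOLO-1* and 4.6, 4.29 and 0.761 in *vim1-3* and was not called. *OLEO3* (AT5G51210) stayed between 1.73 and 6.49, *OLEO4* between 0 and 11.2 and the caleosin gene *ATS1* between 0 and 2.86 normalized counts in all 12 libraries.

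None of the 3 tested regulators was called at 29 °C against WT at 23 °C, and of these only *ABI3* was highest in the 3 warm libraries. *ABI5* (AT2G36270) reached 122, 198 and 251 normalized counts in WT at 23 °C, 152, 185 and 168 in WT at 29 °C, 88.9, 94.2 and 59.6 in OE *APOLO-1* and 117, 146 and 147 in *vim1-3*. Its levels in WT overlapped between the temperatures (log2 fold change -0.15 ± 0.24) and were lowest in the 3 OE *APOLO-1* libraries (-1.21 ± 0.25 against WT at 23 °C, called). *ABI3* (AT3G24650) reached 55.3, 1.05 and 36.8 normalized counts in WT at 23 °C, 102, 129.6 and 100.5 in WT at 29 °C, 72.4, 77.4 and 59.6 in OE *APOLO-1* and 66.7, 71.6 and 56.3 in *vim1-3*. Its warm libraries were the highest, with a log2 fold change of 1.83 ± 0.61 that was not called. WT 23 °C replicate B, again, was far below all other libraries, and without it, or without the library labelled replicate A, *ABI3* was called higher at 29 °C. DESeq2 on 12 libraries and a threshold of 0.05 also called *ABI3* higher. *DOG1* (AT5G45830), which controls seed dormancy, reached 98.4, 67.5 and 60.6 normalized counts in WT at 23 °C, 76.7, 81.7 and 71.1 in WT at 29 °C, 86.4, 91.4 and 108 in OE *APOLO-1* and 98.2, 112 and 103 in *vim1-3* and was called in none of the 6 comparisons. *ABI4*, *FUS3* and *LEC1* did not exceed 4.65 normalized counts in any library, and *LEC1* was at 0 in all 9 libraries outside WT at 23 °C.

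**Figure D4:**
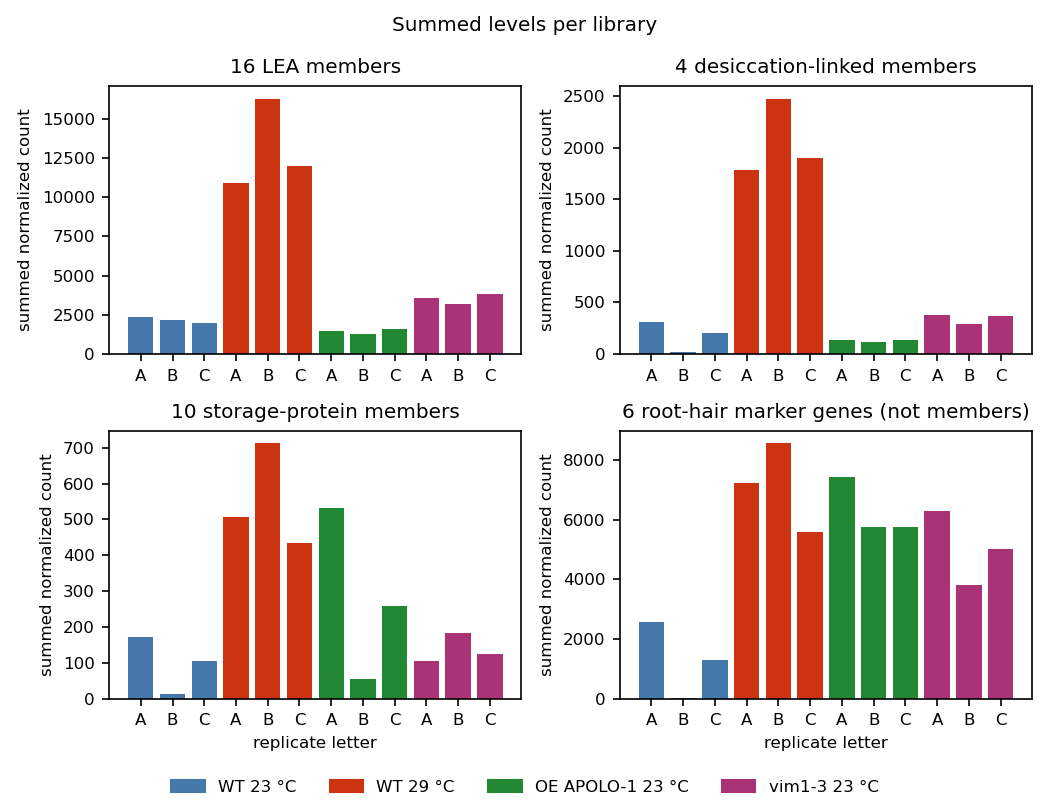
Summed normalized counts (vertical axes, each from 0) in each library (horizontal axis, replicate letter, colour for the group) of the 16 LEA, 4 desiccation and 10 storage genes and of 6 root-hair genes that are no members. The LEA sum is 10867 to 16259 in WT at 29 °C against 1260.3 to 3824 elsewhere, and the root-hair sum is 10.5 in WT 23 °C replicate B.

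The genotypes were next set against WT at 23 °C. In OE *APOLO-1*, 0 of 28 genes were called higher (2.6% of all tested genes) and 2 lower, *RAB18* and *ABI5* (7.68% of all). At an unadjusted p below 0.05, 0 were higher and 4 lower, and the share of all genes at that p was not counted. DESeq2 also called 0 higher (5.66% of all genes tested in that fit) and 2 lower (9.96%). The median log2 fold change of the 28 was 0.09, against -0.03 for all tested genes. Without the library labelled WT 23 °C replicate A, AT1G47980 and *GEA6* were called higher (12.3% of all) and *RAB18* and *ABI5* lower (17% of all), and without replicate C no member was called (1.08% of all higher and 4.02% lower). Without replicate B the 2 called lower were *PER1* and *RAB18* (4.69% of all). In *vim1-3*, 2 of 28 were called higher, *LEA7* and AT2G21490 (2.19% of all), and 0 lower (4.45% of all). The median was 0.62 against -0.03. Without the library labelled WT 23 °C replicate A the count was 9, while the share of all genes called higher was 11.0% (*AtLEA4-1*, AT1G47980, *LEA7*, AT2G18540, AT2G21490, AT3G15670, AT3G17520, AT3G53040 and *DOG1*, with *ABI5* called lower beside 15.8% of all). It was 2 without replicate B (*AtLEA4-1* and AT2G18540, 1.61% of all higher) and 0 without replicate C (0.854% of all). Fits of the 6 libraries compared called 0 members in either genotype, and 2 and 1 of all genes. The root-hair genes had median log2 fold changes of 2.34 in OE *APOLO-1* and 1.87 in *vim1-3* over WT at 23 °C, none called, and their part in these counts was not tested.

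The warm WT libraries were also set against the other genotypes at 23 °C, which leaves out the levels of the uneven WT 23 °C group but shares the warm libraries that chose the genes. Against OE *APOLO-1*, 16 of 28 genes were called higher in WT at 29 °C (4.7% of all) and 0 lower (3.47% of all), with a median log2 fold change of 3.02. Against *vim1-3*, 12 were called higher (6.75% of all) and 0 lower (6.88% of all), with a median of 1.96. The 6 root-hair genes were not called in either comparison, with medians of 0.15 and 0.49. The log2 level of *RAB18* was higher in WT at 29 °C by 3.50 ± 0.38 (over OE *APOLO-1*) and 2.42 ± 0.35 (over *vim1-3*), that of AT1G54870 by 4.75 ± 0.65 and 2.86 ± 0.57, and that of *LEA7* by 3.88 ± 0.26 and 1.92 ± 0.24. *AtLEA4-1* came closest to its warm level in *vim1-3* among the LEA genes (0.70 ± 0.50, not called), at 527 against 856 normalized counts. Fits of only the 6 libraries compared called 19 and 22 members higher, beside 8.41% and 14.3% of all genes tested in those fits.

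The comparison of *vim1-3* with OE *APOLO-1*, both at 23 °C, set side by side 2 groups whose levels did not choose the genes and is the one tested. Both the genes and the tests were still chosen with earlier results of these data known, which limits what the adjusted p values can show. The fit of all 12 libraries also took its estimate of the spread and its low-count filter in part from the WT libraries that chose the genes. The fit of the 6 libraries compared did not. A gene could pass the filter of either fit through the group where it was high. AT2G21490 had 35 to 80 raw counts in *vim1-3* and 2 to 13 in OE *APOLO-1*. In the fit of all 12 libraries, 1 of 28 genes was called higher in *vim1-3* (1.29% of all tested genes) and 0 lower (0.581% of all). The gene was *LEA7*, with a log2 fold change of 1.96 ± 0.25 and an adjusted p = 0.00167 in edgeR, and all 3 *vim1-3* libraries (425 to 602) above all 3 OE *APOLO-1* libraries (111 to 146). Its adjusted p ranged from 1.69e-12 to 0.0134 over the alternatives and was 0.0125 to 0.0134, above the threshold, when any 1 OE *APOLO-1* library was left out. AT2G21490 (log2 fold change 2.62 ± 0.49, adjusted p = 0.0106) and *LEA4-5* (0.69 ± 0.15, adjusted p = 0.0195) missed the threshold. At an unadjusted p under 0.05, 15 of the 28 were higher and 2 lower. The share of all genes at that p was not counted, so these 2 counts have no background beside them. DESeq2 called 4 higher (3.10% of all genes tested in that fit) and 0 lower (2.14%).

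When only the 6 *vim1-3* and OE *APOLO-1* libraries were fitted, 26 of the 41 genes passed the filter, 13 were called higher in *vim1-3* (6.06% of all 20126 tested genes) and 0 lower (4.6% of all). Against the larger fit the log2 fold changes moved by at most 0.07, and the standard error was smaller in 23 of 26 genes, the exceptions being *CRA1*, *CRU3* and *PAP85*. *AtLEA4-1* had 1.57 ± 0.10 (adjusted p = 7.67e-09), *LEA7* 1.95 ± 0.14 (adjusted p = 1.73e-07), *RAB18* 1.07 ± 0.10 (adjusted p = 7.68e-07) and *LEA18* 1.36 ± 0.12 (adjusted p = 1.20e-06) in this edgeR fit. The other 9 were the LEA genes AT3G53040, AT3G15670, *LEA4-5*, AT3G17520 and AT2G21490, the desiccation genes *PER1* and AT1G54870, the cupin AT2G18540 and *ABI5* (0.75 ± 0.17, adjusted p = 0.0059). In the fit of 11 libraries without WT 23 °C replicate B the count was 9 (2.16% of all higher), without the library labelled WT 23 °C replicate A it was 4 (4.88%), and with DESeq2 on 12 libraries it was 4 (3.10%).

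By class, the 6-library fit called 9 of 13 LEA genes, 2 of 4 desiccation genes, 1 of 5 storage genes, 0 of 1 oil body gene and 1 of 3 regulators higher in *vim1-3*. Every *vim1-3* library lay above every OE *APOLO-1* library in 18 of the 28 genes tested in the larger fit (19.5% of all tested genes), and every one lay below in 0 (17% of all). The median log2 fold change of the 28 was 1.05, against 0.01 for all tested genes. Log2 fold changes were above 0 in 21 of the 28 genes and below 0 in 7, none of them called lower. The cruciferins had -2.21 ± 1.11 (*CRA1*, adjusted p = 0.31) and -3.11 ± 1.34 (*CRU3*, adjusted p = 0.227), with overlapping ranges. *OLEO1* had -2.06 ± 0.88, *PAP85* -1.26 ± 0.78, *GEA6* -0.56 ± 0.55 and *EM1* -0.41 ± 0.56. The median of the 5 tested storage genes was -1.26, and that of the 14 tested LEA genes 1.37. *ABI3* (-0.11 ± 0.57, adjusted p = 0.949) and *DOG1* (0.13 ± 0.18, adjusted p = 0.766) were not called. The 6 root-hair genes were not called between these groups and had a median log2 fold change of -0.38.

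**Figure D5:**
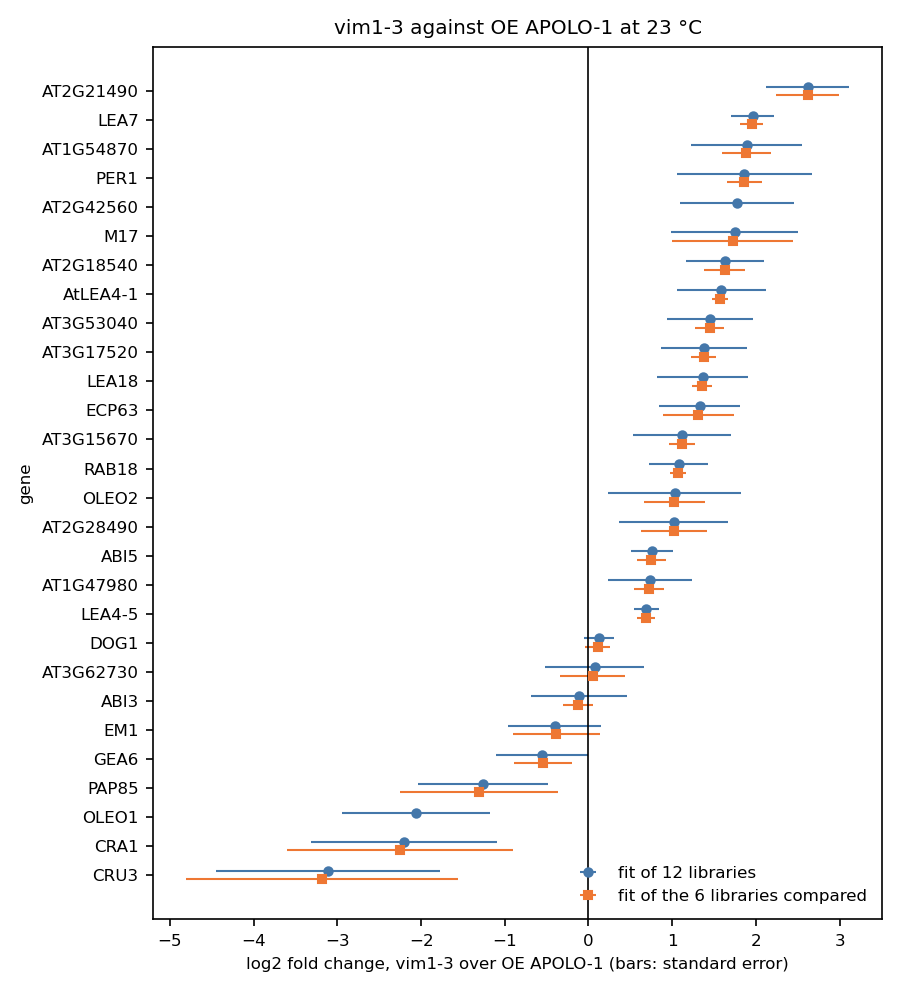
Log2 fold change of *vim1-3* over OE *APOLO-1* (horizontal axis, bars are 1 standard error) for the 28 tested genes (vertical axis, ordered by value), in the fit of 12 libraries and in the fit of the 6 libraries compared, which did not test AT2G42560 and *OLEO1*. The values run from -3.11 for *CRU3* to 2.62 for AT2G21490 in the fit of 12 libraries, and the bars are shorter in the fit of 6 libraries for 23 of 26 genes.

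Other genes of the pathway were taken from lists and followed the members only in part. Of 35 further LEA genes 26 were tested (median log2 fold change 0.60 in WT at 29 °C against WT at 23 °C). In that comparison 10 were called higher (7.88% of all tested genes) and 4 lower (12.8% of all). AT2G23110 was called higher (3.58 ± 0.43), whereas *M10* had a mean of 1.91 normalized counts at 29 °C against 115 at 23 °C and the cold-regulated *COR15B* 2.97 against 47.6, both called lower. In *vim1-3* against OE *APOLO-1*, 2 of the 26 were called higher (1.29% of all tested genes) and 0 lower (0.581% of all). The 2 were AT5G44310 (2.78 ± 0.40, at 57.5 to 80.1 against 8.38 to 11.2 normalized counts) and *SAG21* (0.93 ± 0.13). *SAG21* was also called lower in OE *APOLO-1* than in WT at 23 °C (-1.10 ± 0.13). AT5G44310 was also called in *vim1-3* against WT at 23 °C (2.16 ± 0.39). Of 8 further storage and oil body genes 5 were tested, and 1 was called higher at 29 °C (7.88% of all) and 0 lower (12.8% of all). The caleosin *RD20* was called lower in OE *APOLO-1* than in WT at 23 °C (means of 2.91 against 83.0 normalized counts, with 6.91 in the library labelled WT 23 °C replicate A).

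Of 14 further regulators 7 were tested, and *WRI1*, a regulator of oil synthesis, was called higher at 29 °C (0.80 ± 0.15) and *BZIP25* lower (-0.60 ± 0.12). Of all tested genes 7.88% were called higher and 12.8% lower at 29 °C, and 2.6% and 7.68% in OE *APOLO-1* against WT at 23 °C. *BZIP25* and *AGL15* were called lower in OE *APOLO-1* than in WT at 23 °C (-0.67 ± 0.12 and -1.06 ± 0.22). Among 5 repressors of the seed program only *HSL1*, a B3 repressor, was called at 29 °C (0.35 ± 0.08, higher). Of 7 ABA-linked bZIP genes 6 were tested: *EEL* was called higher at 29 °C (0.82 ± 0.21), and *ABF4* was called higher in *vim1-3* than in OE *APOLO-1* (0.51 ± 0.09). Of 11 ABA metabolism genes 7 were tested. The ABA 8′-hydroxylase gene *CYP707A3* (-1.16 ± 0.19) was called lower at 29 °C. So was the aldehyde oxidase gene *AAO3* (-0.65 ± 0.13), which acts in ABA synthesis. The ABA synthesis gene *NCED3* (-1.52 ± 0.34) and *CYP707A2* (-1.19 ± 0.23) were called lower in OE *APOLO-1* than in WT at 23 °C. *NCED3* was at 78.6 normalized counts in the library labelled WT 23 °C replicate A, and at 201 and 238 in replicates B and C. Its highest OE *APOLO-1* value was 73.7, close to that of the library labelled replicate A. *CYP707A2* was also called lower in *vim1-3* (-1.19 ± 0.23).

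Genes that use up seed reserves after germination split at 29 °C. Of 9 tested, the glyoxylate cycle genes *MLS* (1.74 ± 0.23) and *ICL* (0.66 ± 0.16) were called higher (7.88% of all tested genes). Another 3 were called lower (12.8% of all), among them *LACS7* (-1.13 ± 0.23), which activates fatty acids for breakdown. Of 4 endosperm marker genes, 3 were tested. *EPR1* was at 108 to 161 normalized counts in WT at 29 °C and at 113 to 125 in *vim1-3*, against 18.6 to 40.7 in OE *APOLO-1* and 11.6 to 67.3 in WT at 23 °C, and was called only between WT at 29 °C and OE *APOLO-1*. *EXPA2* was at 275 to 391, 140.2 to 217, 322 to 363 and 3.16 to 161 in the same order, and *NAC025* was at 0 in all 12 libraries. AT3G12910 went the other way, at 14.7 to 54.1 in WT at 23 °C and 0 in all 3 warm libraries. It was at 5.32 to 6.90 in *vim1-3* and 0 to 1.27 in OE *APOLO-1*. Against WT at 23 °C it was called lower at 29 °C (log2 fold change -8.08) and in OE *APOLO-1* (-6.18). The summed level of the 4 was 383 to 552 at 29 °C, 340.2 to 405 in OE *APOLO-1*, 259 to 349 in *vim1-3* and 52.7 to 243 in WT at 23 °C, and its part in the differences of the 41 genes was not tested.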

How the data were processed

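Single-end RNA-Seq reads of 12 seedling libraries were trimmed, cleared of ribosomal RNA and aligned to the TAIR10 genome by the authors with Trimmomatic 0.36, SortMeRNA and STAR 2.5.2b, and counted per Araport11 gene with featureCounts (Subread 1.6.5), per the labels and the study's methods. The deposited values are raw counts, without normalization. Whether the counting used the strand is not given in the sources used here.

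Counts were filtered with filterByExpr, scaled with TMM factors and tested in edgeR 4.0.16 (R 4.3.3, estimateDisp and glmQLFit with robust estimation, glmQLFTest) in one model with a coefficient per group, with Benjamini-Hochberg adjustment over 20664 genes in each of 6 comparisons. A standard error is the log2 fold change divided by the root of F. The procedure was run on simulated counts with the same spread in every group and changes planted only in *vim1-3*. An uneven WT 23 °C group was not simulated, so that run does not show how reliable the calls here are. The 41 members, the other lists, which follow textbook knowledge, and the tests were chosen with earlier results of these data known. Any member could be named. Values in every library were given for the 3 members of each class with the highest mean, the 3 with the largest change at 29 °C and those called between *vim1-3* and OE *APOLO-1*. Genes of other lists were named when called, up to 3 per list and comparison, by size of change, at a mean of at least 1 CPM. The 4 endosperm markers, among them AT3G12910 with a mean below 1 CPM, and the 6 root-hair genes were named outside that rule. Replicates of a group differed beyond sampling noise. RPKM used union exon lengths of RefSeq TAIR10.1, which also gave symbols and upstream windows. Also run were DESeq2 1.42.0, other scaling factors (RLE, upper quartile), fits of only the 6 libraries compared, no filter and a minimum of 10 counts in every library, a block for the replicate letter, 0.05 as the threshold, and each library left out. WT 23 °C replicate A as the sole reference was added after seeing the data. Figures used matplotlib 3.10.9.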

Additional observations from a re-analysis of the deposited data

How the results depend on the processing

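No log2 fold change of a called member changed sign under any alternative run, all of which reused these libraries. Over the fits with 1 library left out, called members kept their call 464 times and lost it 148 times. The counts of members called higher or lower changed more. Fits of only the 6 libraries compared called 5 members higher in WT at 29 °C against WT at 23 °C (18 in the fit of 12 libraries), 0 lower in OE *APOLO-1* against WT at 23 °C (2), 0 higher in *vim1-3* against WT at 23 °C (2), 13 higher in *vim1-3* against OE *APOLO-1* (1) and 22 higher in WT at 29 °C against *vim1-3* (12). In the same directions these fits called 321, 2, 0, 1220 and 2888 of all tested genes, against 1628, 1588, 452, 267 and 1394 in the fit of 12 libraries. DESeq2 on 12 libraries called 4 higher in *vim1-3* against WT at 23 °C (5.19% of all genes) and 4 against OE *APOLO-1* (3.10%). A threshold of 0.05 gave 4 and 3 in these comparisons (7.80% and 3.30% of all genes). Without a filter, 1 was lower in OE *APOLO-1* (5.49% of all genes) and 1 higher in *vim1-3* (1.77%) against WT at 23 °C. A minimum of 10 counts in every library tested fewer members. With it, 7 were higher in WT at 29 °C against WT at 23 °C (9.19% of all genes). Against OE *APOLO-1* 7 were higher at 29 °C (5.22%) and against *vim1-3* 4 (8.04%). In *vim1-3* against WT at 23 °C 1 was higher (2.60%).

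With the replicate block, 1 member was lower in OE *APOLO-1* (5.95% of all genes) and 0 were higher in *vim1-3* (1.14%) against WT at 23 °C. *LEA7* stayed called in *vim1-3* against OE *APOLO-1* (adjusted p = 0.00802 in edgeR). Deviations of same-letter libraries correlated from -0.22 to 0.19, so the letters were not read as pairs. With 1 library left out at a time, counts ran from 11 to 20 higher in WT at 29 °C against WT at 23 °C, from 0 to 2 higher and 0 to 2 lower in OE *APOLO-1* against WT at 23 °C, from 0 to 9 higher and 0 to 1 lower in *vim1-3* against WT at 23 °C, from 0 to 9 higher in *vim1-3* against OE *APOLO-1*, from 10 to 20 higher in WT at 29 °C against OE *APOLO-1* and from 6 to 20 higher against *vim1-3*. The count of higher genes in *vim1-3* against WT at 23 °C was 0 without WT 23 °C replicate C, WT 29 °C replicate A or C, OE *APOLO-1* replicate A or C or any *vim1-3* library. Without *vim1-3* replicate A, B or C, 0.219%, 0.320% and 0.177% of all genes were higher there, against 2.19% in the fit of 12 libraries. The count of lower genes in OE *APOLO-1* was 0 without WT 23 °C replicate C or any OE *APOLO-1* library. The lowest count of 10 was without OE *APOLO-1* replicate B, and 6 was reached without WT 29 °C replicate B or C or any *vim1-3* library. The cause was not tested. The fit with the library labelled WT 23 °C replicate A as the sole reference left 1 library in that group, assumed to vary like the other groups. Its counts of members called are therefore not given.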
